A study of Mus musculus with 22 samples.

Results

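The metallothionein and zinc transport genes, 8 in all, were followed across the livers of Tcf7l2 knockout mice and their controls. They were the metallothioneins Mt1 and Mt2, the transcription factor Mtf1, the importers Slc39a14, Slc39a4 and Slc39a5, and the exporters Slc30a1 and Slc30a10. All probes annotated with these symbols were taken, which gave 13 of the 41174 probes on the array for 8 of its 28034 genes and transcripts. Mt1 and Mt2 were chosen because they were high on most arrays of fasted knockout livers, so their values in every comparison that uses fasted livers are a description without a test.

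Metallothioneins are small cysteine-rich proteins that bind zinc and copper in the cytosol. In liver their genes are transcribed when free zinc rises, through Mtf1, a zinc-sensing factor that binds metal response elements, and they also respond to glucocorticoids, to cytokines of the acute phase and to fasting in rodents. Zinc enters the cytosol through transporters of the Slc39 (ZIP) family and leaves it through transporters of the Slc30 (ZnT) family.

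The study measured whole-liver RNA on 22 two-colour arrays, each against one common mouse reference RNA, so a value below is the log2 ratio of liver over reference signal. The newborn livers came from 4 Tcf7l2-/- and 4 Tcf7l2+/+ pups on the C57BL/6 background, all given 50 ul of 10% glucose under the skin and taken 5 h after birth. The adult livers came from LTCF4KO mice (Tcf7l2loxp/loxp;SA-CreERT2) and from controls (Tcf7l2loxp/loxp without the Cre), also C57BL/6, both given tamoxifen at 3 weeks of age and taken 1 to 2 months later. Of the adults, 4 knockouts and 4 controls had been fasted for 24 h, and 3 knockouts and 3 controls were fed. The labels call the samples biological replicates, and do not name the promoter behind the SA-Cre transgene.

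The share of probes with a liver signal well above background was 55.0% to 63.8% on newborn knockout, 49.5% to 58.9% on newborn wild-type, 53.2% to 61.3% on fasted knockout, 49.6% to 61.0% on fasted control, 22.5% to 30.7% on fed knockout and 23.1% to 27.4% on fed control arrays. The brightest Tcf7l2 probe averaged -1.66 in newborn knockouts and -0.78 in wild types (limma adjusted p = 0.0566), and 0.32 in fasted knockouts and -0.03 in fasted controls (adjusted p = 0.491). In fed livers it averaged -0.15 in knockouts and -0.36 in controls (adjusted p = 0.999), so the adult arrays do not show the deletion at this probe, whose place relative to the deleted part is not given in the sources used here. In newborns a second Tcf7l2 probe averaged 0.02 in knockouts and -0.06 in wild types. A further one, above background on 0 newborn arrays, averaged -0.44 and -0.35. Hepatocyte markers were well above background on every array, all 10 of 10. Slide and genotype cannot be told apart in newborns, since the knockouts lay on one slide and the wild types on another. Each fasted or fed slide held both genotypes, but no slide held both fasted and fed livers.

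Among the fasted knockouts, 2 arrays stood apart. On fasted knockouts 2 and 3 all 16 pancreas acinar markers on the array were well above background, with a summed share of the liver signal of 2490 and 1110 ppm. The same sum was 44.6 on fasted knockout 1 with 5 of 16 markers above background, 40.1 on fasted knockout 4 with 7 of 16, and 36.6 to 50 on the 4 fasted control arrays with 6 to 9 of 16. Prss2, Cpa1 and Pnlip were above background on those 2 knockout arrays and on 0 of 4 control arrays. Some other markers were above background equally often in both genotypes: Cel and Ctrb1 on 4 of 4 arrays of each, Clps on 3 and Cela3b on 2. The rest of the 16 are not listed one by one. For the 8 genes and the gene lists, most differences and counts of genes past the test that use all 4 fasted knockouts are therefore also given without these 2 arrays. That fit was chosen after seeing the data. Second probes, counts at an unadjusted p in the lists and some listed genes are given with all 4 only.

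Mtf1 acts on metallothionein genes through metal response elements near their starts, and the promoters are shown for that reason. The core of the metal response element was searched as TGCACNC and TGCGCNC on both strands, in RefSeq's windows of 250 bases before to 50 bases after a transcript start (GRCm38.p6), which were at hand for 6 of the 8 genes. Mt2 lies 5' of Mt1 on chromosome 8. For Mt1, where another transcript model overlaps the window, the 30 bases before the start at chr8:94179059-94179088 and the 30 bases from the start at chr8:94179089-94179118 are shown, and for Mt2 the 250 bases before its start at chr8:94172368-94172617, all on the plus strand. Slc30a1, a known Mtf1 target, is shown over 30 bases at chr1:191906727-191906756, plus strand, as one of the 2 exporters with matches. Capitals mark the motif matches.
Mt1 before the start: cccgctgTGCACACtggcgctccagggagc
Mt1 from the start: tcTGCACTCcgcccgaaaagTGCGCTCggc
Mt2: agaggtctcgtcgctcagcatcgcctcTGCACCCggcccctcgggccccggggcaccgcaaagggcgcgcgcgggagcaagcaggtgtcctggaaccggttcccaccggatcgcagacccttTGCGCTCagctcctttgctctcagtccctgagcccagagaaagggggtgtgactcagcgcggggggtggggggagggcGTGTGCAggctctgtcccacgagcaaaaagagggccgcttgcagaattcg
Slc30a1: acgggggttccGAGTGCAaagcaaagtttt

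The Mt1 window held 3 matches, beginning 23 bases before the start on which the window was set and at bases 3 and 21 from it. Positions relative to the start of the other Mt1 transcript model were not worked out, and matches outside the window were not counted. The Mt2 window held 4 matches, beginning 223, 128 and 50 bases before the start and at base 5 from it, the last one outside the stretch shown. The Slc30a1 window held 2 matches and the Slc30a10 window 3, of which 2 overlap as one site read on both strands. One of the 2 Slc39a5 windows held 1 match, and the other, like the Mtf1 window, held 0. Of all 32851 promoter windows, 25.7% held at least 1 match and 1.97% held 3 or more. A match is a description of the letters and not a bound site.

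Mt1 was measured by 1 probe printed on 10 spots of each array, at chr8:96704011-96704070 (mm9, the build of the array annotation), of which 7 to 10 spots were kept per array. Their SD within an array was 0.02 to 0.23 on the log2 scale, with a median of 0.12, which is a spread between spots and not between animals. Mt2 was measured by 1 spot at chr8:96697371-96697430. Both were well above background in liver on all 22 arrays and saturated on 0. The raw liver signal of Mt1 ran from 1077 to 168316, a 156-fold range, while its raw reference signal ran from 66254 to 136588, a 2.06-fold range. For Mt2 the liver range was 355-fold and the reference range 2.7-fold.

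In fasted knockout livers Mt1 stood at 0.07, 0.90, -0.11 and -2.65 in replicates 1 to 4. In fasted control livers it stood at -3.23, -2.04, -3.28 and -1.57. Knockouts 1, 2 and 3 were above every control, and knockout 4 lay among the controls. Mt2 stood at 0.49, 1.45, 0.24 and -3.31 in the fasted knockouts, against -4.50, -3.27, -4.58 and -2.12 in the fasted controls. The same 3 knockout arrays were high and the same one was not. Control 4 was the highest control for both genes.

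The knockouts averaged -0.45 ± 1.53 for Mt1 and the controls -2.53 ± 0.86 (SD, n = 4 each), a difference of 2.08 ± 0.61 (SE), or 4.23-fold. For Mt2 the knockouts averaged -0.28 ± 2.08 and the controls -3.62 ± 1.17 (SD, n = 4 each), a difference of 3.33 ± 0.82 (SE), or 10.1-fold. The SEs of 0.61 and 0.82 come from a fit that shares one spread over the 4 adult groups. The fed groups, with SDs of 0.15 to 0.50, lower that spread, so both SEs are smaller than the fasted arrays alone would give. The spread among the knockouts, from the low replicate 4 to the high replicate 2, was wider than the difference itself for both genes. On slide 3, which held replicates 1 and 2 of both genotypes, the difference was 3.12 ± 0.81 for Mt1 and 4.85 ± 1.09 for Mt2. On slide 4, with replicates 3 and 4, it was 1.04 ± 0.81 for Mt1 and 1.81 ± 1.09 for Mt2. These SEs are equal on both slides because they come from one spread shared over all adult groups and slides. They do not give the precision of either slide by itself. Without knockout 4 the difference was 2.82 for Mt1 and 4.34 for Mt2.

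Fasted knockout 1, whose pancreas marker sum of 44.6 ppm lay within the control range, had Mt1 at 0.07 and Mt2 at 0.49, both above every control. Without fasted knockouts 2 and 3, the 2 arrays with pancreas markers, the difference was 1.24 ± 0.65 for Mt1 and 2.21 ± 0.90 for Mt2, from 1 high and 1 low knockout array. Without fasted knockouts 1 and 2 it was 1.15 ± 0.62 for Mt1 and 2.08 ± 0.86 for Mt2. In both of these fits the shared spread again makes the SEs smaller than the fasted arrays alone would give. Markers of neutrophils and their precursors, 8 in all, summed to 34.1, 76.4, 19.8 and 11.1 ppm in fasted knockouts 1 to 4 and to 12.5 to 24.7 in the fasted controls, with 3 to 5 of 8 above background in knockouts and 2 to 5 of 8 in controls. Kupffer cell markers summed to 616 to 961 ppm in the knockouts and 394 to 1080 in the controls, with 10 of 10 above background on each array. The part of other cells in the metallothionein levels was not tested, and in bulk liver a change in the share of a cell type and a change in RNA per cell cannot be told apart.

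**Figure D1:**
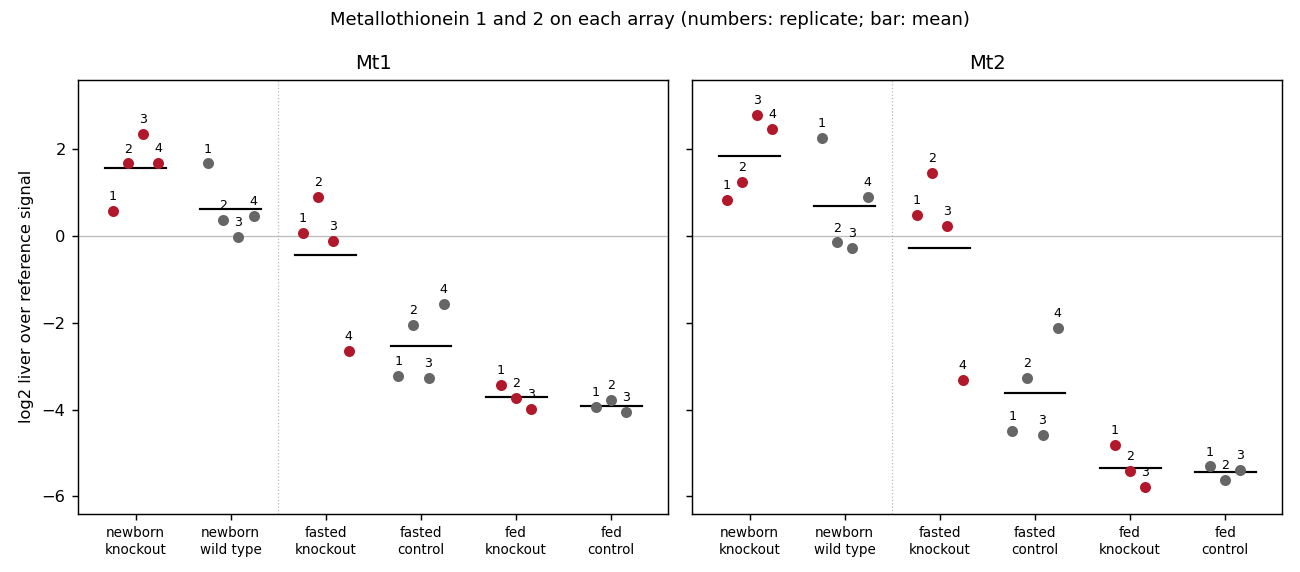
Log2 ratio of liver over reference signal for Mt1 (left) and Mt2 (right) on each of the 22 arrays, by group, with replicate numbers beside the points, knockouts in red, controls or wild types in grey and a bar at each group mean. Fasted knockouts 1, 2 and 3 lie between -0.11 and 0.90 for Mt1 and knockout 4 at -2.65, among the fasted controls, and all 6 fed arrays lie at -3.44 or below.

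**Figure D2:**
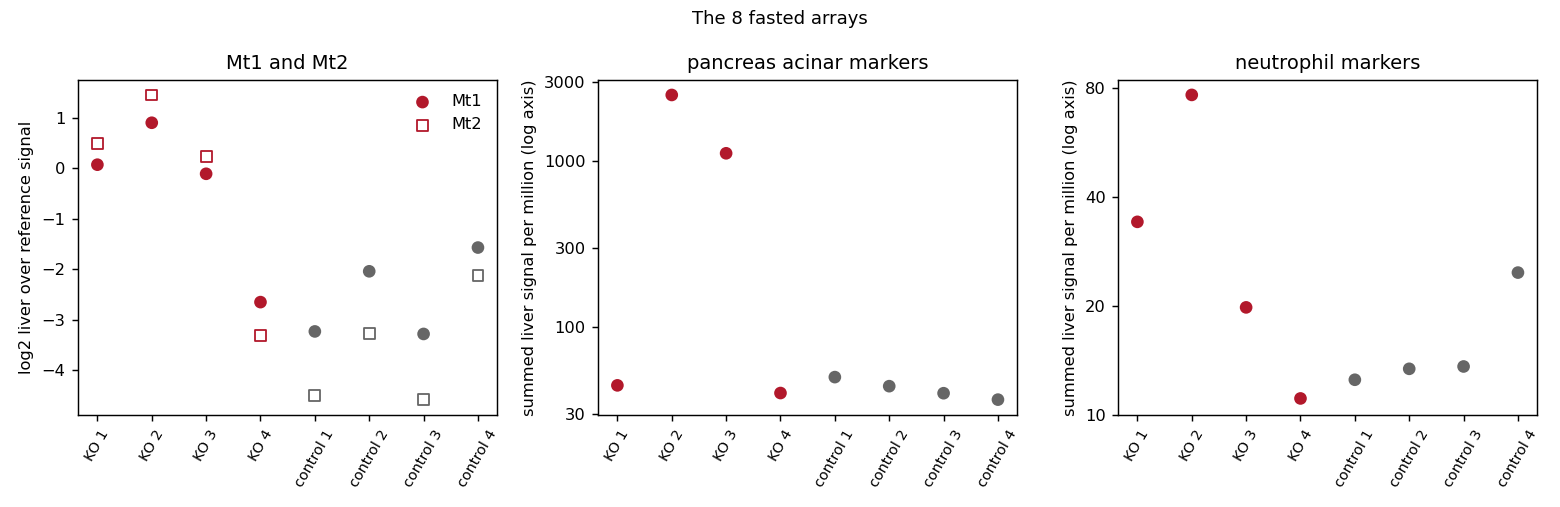
The 8 fasted arrays, knockouts (KO, red) left of controls (grey): log2 ratio of Mt1 and Mt2 (left), and the summed liver signal of pancreas acinar markers (middle) and of neutrophil markers (right), both as shares of the total liver signal on log axes. The pancreas sum is high on KO 2 and KO 3 only among these 8 arrays, while Mt1 and Mt2 are also high on KO 1.

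In fed livers the metallothioneins were low in both genotypes. Mt1 stood at -3.44, -3.74 and -3.98 in fed knockouts and at -3.94, -3.77 and -4.06 in fed controls. The ranges overlapped, and the difference was 0.20 ± 0.70 (SE, n = 3 each, limma adjusted p = 0.999). Mt2 stood at -4.81, -5.42 and -5.79 in fed knockouts and at -5.31, -5.62 and -5.40 in fed controls, a difference of 0.10 ± 0.95 (adjusted p = 0.999). The SE comes from a fit that shares one spread over the 4 adult groups, and the fed arrays alone had SDs of 0.15 to 0.50.

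Every fasted array, knockout 4 included, lay above every fed array of its genotype for both genes. Fasted knockouts stood above fed knockouts by 3.27 ± 0.65 for Mt1, 9.66-fold, and by 5.06 ± 0.89 for Mt2, 33.3-fold. Without fasted knockouts 2 and 3 these differences were 2.43 ± 0.68 for Mt1 and 3.93 ± 0.95 for Mt2. Fasted controls stood above fed controls by 1.39 ± 0.65 for Mt1, 2.63-fold, and by 1.83 ± 0.89 for Mt2, 3.55-fold. The difference between these differences was 1.88 ± 0.93 for Mt1 and 3.23 ± 1.26 for Mt2, given as a description, since both comparisons draw on the arrays for which the genes were chosen. Without fasted knockouts 2 and 3 it was 1.04 ± 0.89 for Mt1 and 2.10 ± 1.23 for Mt2.

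In newborn livers both metallothioneins were higher than in any adult group on average. Mt1 stood at 0.57, 1.67, 2.35 and 1.68 in newborn knockouts and at 1.67, 0.37, -0.03 and 0.47 in wild types. Of the knockouts, 3 matched or exceeded the highest wild type and knockout 1 fell within the wild-type range. The difference was 0.95 ± 0.42 (SE, n = 4 each, adjusted p = 0.373). Mt2 stood at 0.84, 1.25, 2.78 and 2.47 in newborn knockouts and at 2.26, -0.15, -0.28 and 0.90 in wild types, a difference of 1.15 ± 0.60 (adjusted p = 0.472). Wild type 1 was high for both genes. These arrays do not bear on the choice of the 2 genes, and the difference did not pass the test.

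By mean level both genes ran in the same order, newborn knockout, newborn wild type, fasted knockout, fasted control, fed knockout and fed control. Ranges of neighbours in that order overlapped at each step except that from fasted control to fed knockout. Newborn and adult livers differ in age, handling and slide, and were not tested against each other. Across the 14 adult arrays Mt1 and Mt2 correlated at r = 0.995, as a description of 2 genes measured in the same libraries. The log2 ratio of Mt2 minus that of Mt1 was 0.35 to 0.55 on fasted knockouts 1 to 3 and -0.65 on knockout 4, and -1.30 to -0.55 on fasted controls, so Mt2 spanned a wider range than Mt1.

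Among the other 6 genes, Mtf1, the zinc sensor that drives both metallothionein genes, passed no test between knockout and control livers. Its brighter probe in adults (chr4:124526365-124526424, mm9) stood at 1.23, 1.66, 1.31 and 1.62 in fasted knockouts and at 1.36, 1.14, 1.36 and 1.48 in fasted controls, a difference of 0.12 ± 0.14 (adjusted p = 0.821), and of 0.09 ± 0.17 without fasted knockouts 2 and 3 (adjusted p = 0.954). In fed livers it stood at 0.75, 1.03 and 0.74 in knockouts and at 0.34, 0.70 and 0.75 in controls, a difference of 0.24 ± 0.16 (adjusted p = 0.907). In newborns a different probe was brightest (chr4:124482221-124482280), at 0.94, 0.93, 0.93 and 1.03 in knockouts and at 1.68, 0.97, 1.02 and 0.88 in wild types (-0.18 ± 0.17, adjusted p = 0.759). A further Mtf1 probe was above background in liver on 0 of 22 arrays.

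Fasting was accompanied by more Mtf1 signal in both genotypes. Fasted knockouts stood 0.62 ± 0.15 above fed knockouts (1.53-fold, adjusted p = 0.00594), and fasted controls 0.74 ± 0.15 above fed controls (1.67-fold, adjusted p = 0.00193), with each fasted array above each fed one within a genotype. Without fasted knockouts 2 and 3 the knockout difference was 0.59 ± 0.18 (adjusted p = 0.0378). Only 4 of the 6 fed arrays had this probe well above background, 2 of each genotype. On the liver channel alone, without the reference, the differences were 0.10 in knockouts (adjusted p = 0.68) and 0.20 in controls (adjusted p = 0.356).

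Slc39a14, a ZIP importer of zinc, manganese and non-transferrin-bound iron that is raised in liver by interleukin 6, leaned the same way in each comparison of genotypes and passed the test in none of them. Its brighter probe (chr14:70703405-70703464, mm9) stood at 2.74, 3.21, 3.07 and 2.44 in fasted knockouts and at 2.10, 2.10, 2.40 and 2.78 in fasted controls, a difference of 0.52 ± 0.21 (adjusted p = 0.363). As for the metallothioneins, knockout 4 was the lowest knockout and control 4 the highest control. Control 4 lay above knockouts 1 and 4, while the other controls lay below all knockouts. Without fasted knockouts 2 and 3 the difference was 0.25 ± 0.24 (adjusted p = 0.865). In newborns it stood at 1.78, 2.59, 2.99 and 1.95 in knockouts and at 1.37, 2.09, 1.77 and 1.48 in wild types (0.65 ± 0.27, adjusted p = 0.331).

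In fed livers Slc39a14 stood at 2.08, 1.94 and 2.37 in knockouts and at 1.29, 1.93 and 1.82 in controls (0.45 ± 0.24, adjusted p = 0.807), with each knockout above each control, though the nearest arrays stood at 1.94 and 1.93. Its second probe gave 0.49 in newborns, -0.07 in fasted and 0.57 in fed livers for the same comparisons, so the probes disagreed in fasted livers. The main probe was higher in fasted than in fed livers, by 0.74 ± 0.22 in knockouts (adjusted p = 0.0215) and by 0.67 ± 0.22 in controls (adjusted p = 0.0331). The second probe did not pass there, at 0.15 ± 0.55 in knockouts (adjusted p = 0.858) and 0.79 ± 0.55 in controls (adjusted p = 0.277, both from a fit on all probes). With fasted knockouts 2 and 3 left out, the knockout difference of the main probe was 0.46 ± 0.25 (adjusted p = 0.201). It also missed the threshold without fasted knockout 2 or 3 or fed knockout 1 or 2, one at a time, with adjusted p-values of 0.0541 to 0.0783. The control difference missed it without fasted control 3 or 4 or fed control 1 or 3, with adjusted p-values of 0.0502 to 0.156.

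Slc39a4, the importer whose loss causes acrodermatitis enteropathica in humans, varied little between the group means. They were 3.32 in newborn knockouts and 3.33 in wild types, 3.21 in fasted knockouts and 2.94 in fasted controls, and 3.21 in fed knockouts and 3.11 in fed controls. No comparison passed as fitted here, and the largest of the genotype differences, in fasted livers, was 0.26 ± 0.19 (adjusted p = 0.683), or 0.33 ± 0.25 without fasted knockouts 2 and 3 (adjusted p = 0.816). In that comparison 3 of 4 knockouts, at 3.24, 3.21 and 3.31, lay above every control, while knockout 3 at 3.08 lay below control 2 at 3.11. Fasted against fed knockouts differed by 0.00 ± 0.21 (adjusted p = 0.998) and by 0.07 ± 0.27 without fasted knockouts 2 and 3 (adjusted p = 0.884). With median centring in place of loess that difference was 0.82 and passed (adjusted p = 0.00696).

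Slc39a5, a ZIP importer found on the basolateral side of enterocytes and acinar cells in mice, was well above background on 8 of 8 newborn arrays and on 0 of 14 adult arrays, and so entered the newborn test only. It stood at 3.69, 3.79, 3.54 and 3.62 in newborn knockouts and at 4.04, 3.76, 3.80 and 3.99 in wild types (-0.24 ± 0.11, adjusted p = 0.397). The ranges met only at knockout 2 and wild type 2. Fasted knockouts 2 and 3, with their pancreas markers, had Slc39a5 below background like the other adult arrays.

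Slc30a1, the plasma membrane zinc exporter, did not pass in fasted livers. It stood at 2.09, 1.78, 2.06 and 1.61 in fasted knockouts and at 1.97, 2.13, 1.63 and 1.93 in fasted controls (-0.03 ± 0.13, adjusted p = 0.974), and the difference was -0.06 ± 0.17 without fasted knockouts 2 and 3 (adjusted p = 0.974). Its value on knockouts 1 to 3, which were high for the metallothioneins, lay within the range of the controls. In fed livers it stood at 2.34, 2.12 and 2.30 in knockouts, above the 1.91, 2.02 and 1.81 of the controls, without passing the test (0.34 ± 0.15, adjusted p = 0.683). In newborns it averaged 1.15 ± 0.33 in knockouts and 1.51 ± 0.43 in wild types (SD, n = 4 each, adjusted p = 0.603). Fasted knockouts lay below all fed knockouts at a difference of -0.36 ± 0.14, which missed the threshold at an adjusted p = 0.0639, and fasted controls against fed controls differed by 0.00 ± 0.14 (adjusted p = 0.995). The knockout difference was -0.40 ± 0.18 without fasted knockouts 2 and 3 (adjusted p = 0.132), and it passed without fasted knockout 1 (-0.43, adjusted p = 0.0435) and without fasted control 3 (-0.36, adjusted p = 0.0447). The second Slc30a1 probe (chr1:193736760-193736819, mm9), above background on all 22 arrays, gave -0.04 ± 0.19 in knockouts (adjusted p = 0.883), with fasted knockouts at 1.88, 1.95, 2.57 and 2.02 and fed knockouts at 2.20, 2.13 and 2.11. In controls it gave 0.47 ± 0.19 (adjusted p = 0.0631), so the 2 probes disagreed on fasting.

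Slc30a10, a manganese exporter of the ZnT family, had the widest disagreement between probes. Its reference signal was near background, above it on 7 of 14 adult and 0 of 8 newborn arrays for one probe. For the other probe it was above background on 4 of 14 adult and 1 of 8 newborn arrays. The ratios of Slc30a10 are therefore less precise than those of the other genes. The first of these, with the brighter adult signal (chr1:187288652-187288711, mm9), stood at 5.60, 5.54, 4.87 and 5.63 in fasted knockouts. In fasted controls it stood at 5.83, 4.65, 4.78 and 4.33 (0.51 ± 0.31, adjusted p = 0.601). The difference was 0.72 ± 0.38 without fasted knockouts 2 and 3 (adjusted p = 0.665). It stood at 5.11, 4.18 and 3.95 in fed knockouts, each above the fed controls at 3.42, 3.66 and 3.56 (0.87 ± 0.36, adjusted p = 0.622). In newborns the other probe averaged 3.36 ± 0.49 in knockouts and 3.67 ± 0.69 in wild types (SD, n = 4 each, adjusted p = 0.806).

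By that adult probe Slc30a10 was higher in fasted than in fed livers, by 0.99 ± 0.34 in knockouts (adjusted p = 0.036) and by 1.35 ± 0.34 in controls (adjusted p = 0.0077). The knockout difference missed the threshold without fasted knockout 1, 2 or 4 or fed knockout 2 or 3, one at a time, with adjusted p-values of 0.0739 to 0.144. The other probe gave -0.09 ± 0.74 in knockouts (adjusted p = 0.938) and 0.66 ± 0.74 in controls (adjusted p = 0.509, both from a fit on all probes). It was above background on 0 of 3 fed control arrays. The control difference did not pass with Feature Extraction's processed signals (0.67, adjusted p = 0.162) or with the mean over probes (1.01, adjusted p = 0.134). On the liver channel alone the differences were 0.21 in knockouts (adjusted p = 0.715) and -0.06 in controls, so the direction in controls turned with the reference left out.

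**Figure D3:**
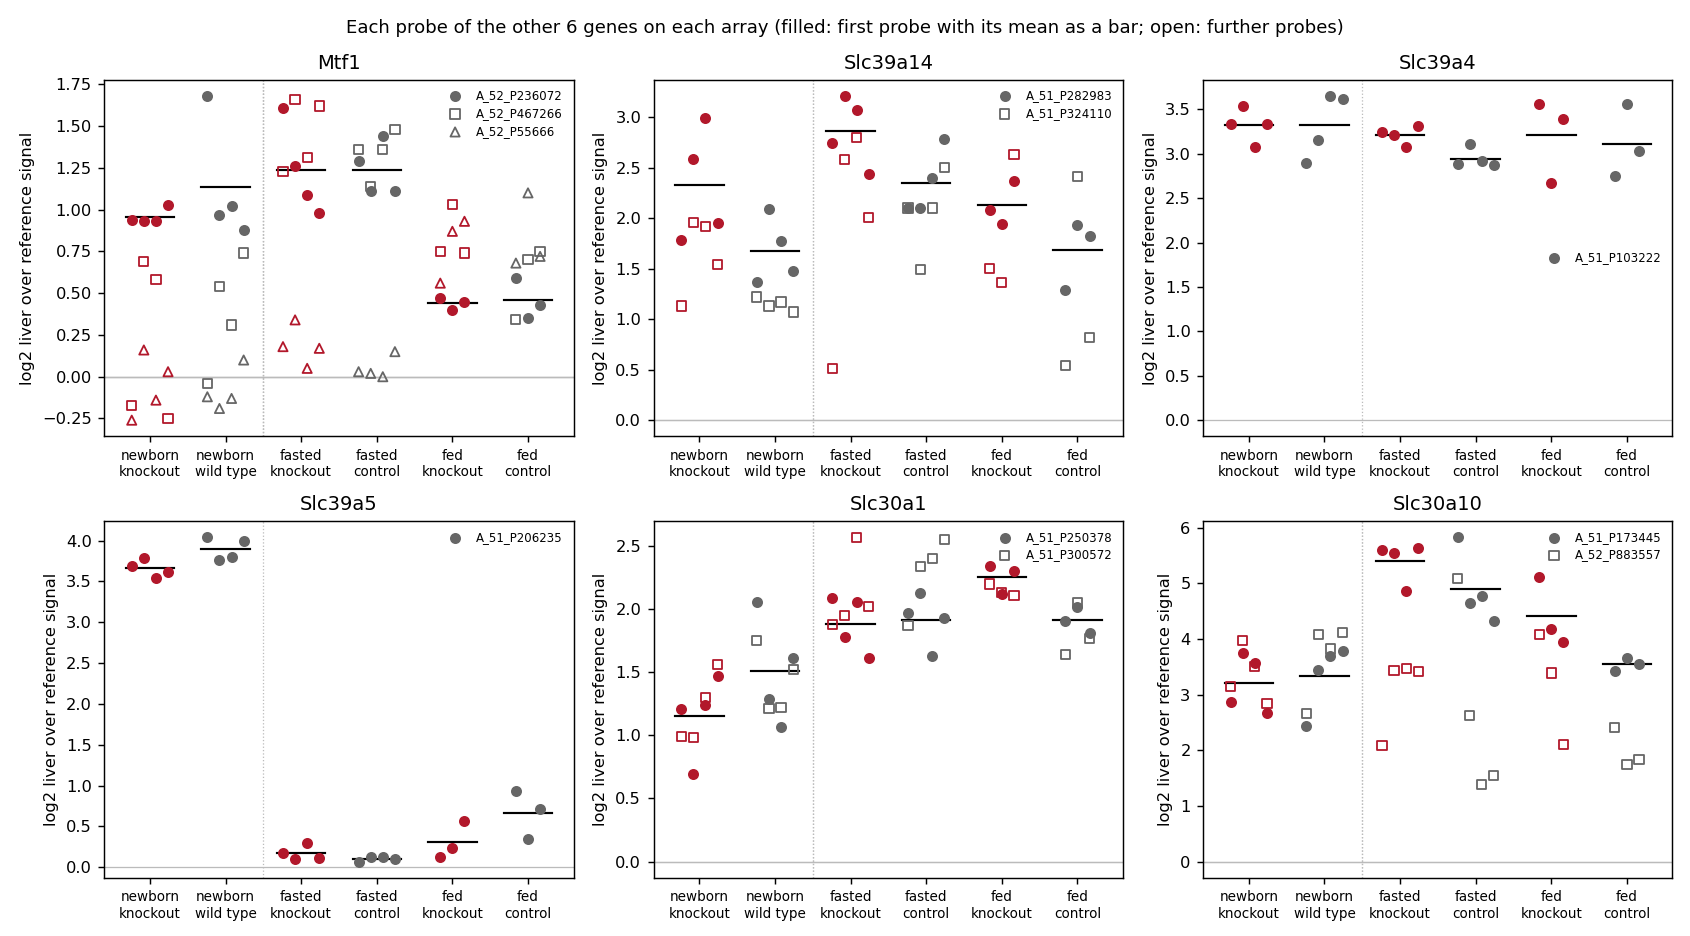
Log2 ratio of liver over reference signal for each probe of Mtf1, the 3 importers and the 2 exporters on each array, knockouts in red and controls or wild types in grey; filled points are one probe with a bar at its group mean, open points the further probes. Slc39a5 sits at 3.54 or above on the newborn arrays and at 0.93 or below on the adult arrays, and the 2 Slc30a10 probes part on the adult arrays.

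Counted together, 0 of the 8 genes passed at an adjusted p of 0.05 between newborn knockouts and wild types, where 1.48% of all 17174 genes tested passed. At an unadjusted p of 0.05, Mt1 (0.0499) and Slc39a14 (0.039) lay under it, as did 13.4% of all genes. Between fasted knockouts and controls 0 of the 5 genes other than Mt1 and Mt2 that were tested passed, where 0.477% of 17187 genes did, and Slc39a14 alone lay under an unadjusted 0.05 (0.0254), as did 11.1% of all genes. Between fed knockouts and controls 0 of 7 passed, where 0.215% did, with Slc30a1 (0.0459) and Slc30a10 (0.0319) under an unadjusted 0.05, as were 7.15% of all genes. In fed livers 3 of the 7, Slc39a14, Slc30a1 and Slc30a10, had every knockout above every control, a pattern that 7.03% of all genes showed.

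Between fasted and fed livers 3 of 5 genes other than Mt1 and Mt2 passed in knockouts, where 35.7% of all genes passed, and 3 of 5 in controls, where 36.8% passed. They were Mtf1, Slc39a14 and Slc30a10 in both, and each was higher in fasted livers. Every fasted array lay above every fed one for 2 of 5 in knockouts (Mtf1 and Slc39a14) and for 3 of 5 in controls (those and Slc30a10). Of all genes, 22.2% and 24.3% showed this. Mt1 and Mt2 showed it in both genotypes, but are left out of these counts because their choice used these arrays. In the fit without fasted knockouts 2 and 3, 1 of 5 passed in knockouts, Mtf1, where 21.4% of all genes did, and Slc30a10 stood at 1.20 ± 0.40 with an adjusted p = 0.0556. Between fasted knockouts and controls 0 of 5 passed without them, where 0.279% of all genes did. The 2 fasting comparisons share no arrays, but fasted and fed livers lay on different slides. The interaction of genotype and fasting passed for 0 of 5 of them, and for 0% of all genes, with 1134 genes under an unadjusted p of 0.05. With fasted knockouts 2 and 3 left out, it passed for 0 of 5 and for 0% of all genes, with 1034 under an unadjusted 0.05.

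**Figure D4:**
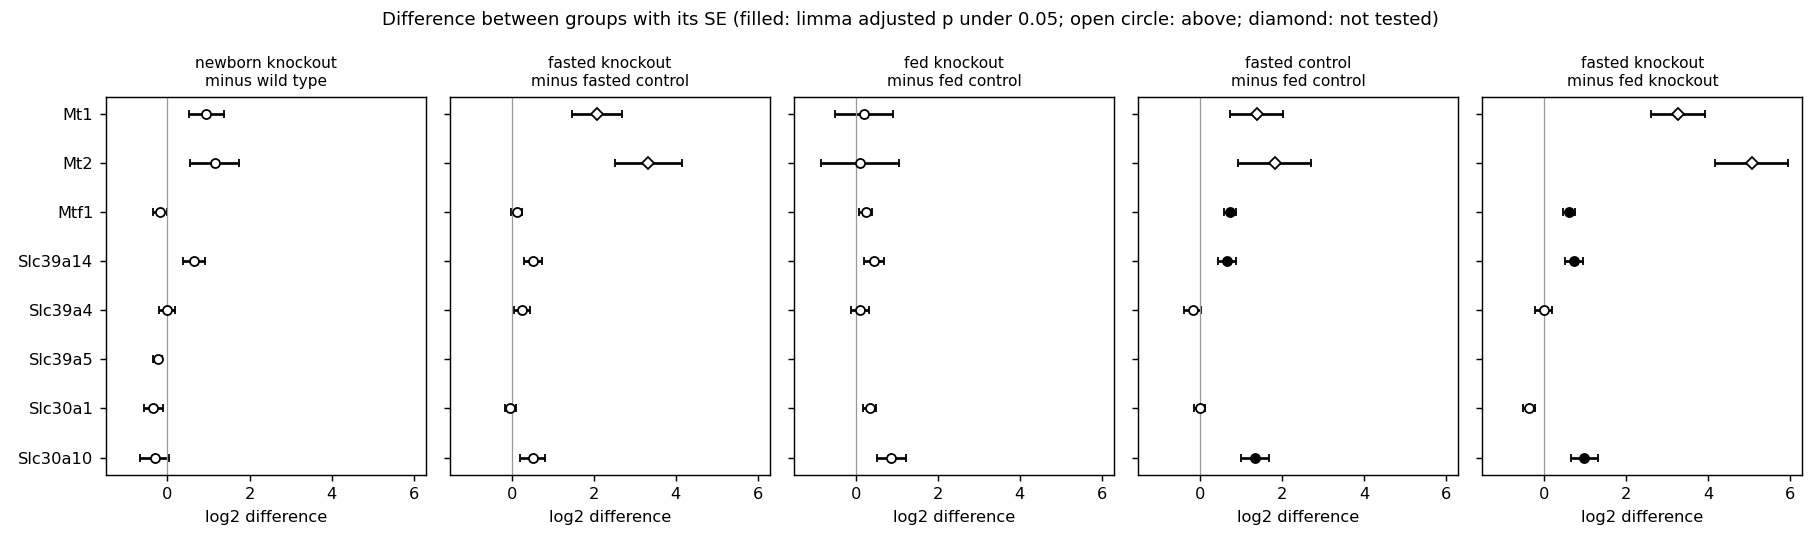
Difference between groups on the log2 scale (points) with its SE (bars) for the 8 genes in 5 comparisons; filled circles have a limma adjusted p under 0.05, open circles do not, and diamonds were not tested because the genes were chosen on these arrays. Mt1 and Mt2 differ most where fasted knockouts are involved, up to 5.06 for Mt2, and Slc39a5 has no point in adults because it was below background there.

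No other gene of zinc handling passed between genotypes. Of 20 further genes on the array, 17 were bright enough to test, and 0 passed in any of the 3 genotype comparisons, with median differences of 0.03 in newborn, 0.08 in fasted and 0.11 in fed livers, beside medians over all genes of -0.01, 0.01 and 0.02. Mt3, the brain metallothionein, differed by 0.41 ± 0.14 in newborn (adjusted p = 0.209), -0.13 ± 0.14 in fasted (adjusted p = 0.82) and 0.28 ± 0.16 in fed livers (adjusted p = 0.851). Mt4, the metallothionein of stratified epithelium, differed by 0.35 ± 0.17, 0.08 ± 0.23 and 0.47 ± 0.27 in the same order, with adjusted p-values of 0.403, 0.954 and 0.842. At an unadjusted p of 0.05 the counts were 3 of 17 in newborn, 1 in fasted and 0 in fed livers, beside 13.4, 11.1 and 7.15% of all genes. The smallest adjusted p among these genes was 0.0995 in newborns, for the importer Slc39a8 at -0.44 ± 0.11, and 0.326 in fasted livers, for Slc39a9 at -0.31 ± 0.12. In the fit without fasted knockouts 2 and 3, 0 of 17 passed in fasted livers, the median was -0.03, and Slc39a9 stood at -0.36 ± 0.15 (adjusted p = 0.518), Mt3 at -0.22 ± 0.18 (adjusted p = 0.835) and Mt4 at -0.04 ± 0.31 (adjusted p = 0.995).

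With fasting the same list split. In fasted against fed knockouts 3 of 17 rose and 4 fell, 7 in all, where 35.7% of all genes passed, and in fasted against fed controls 6 rose and 4 fell, 10 in all, where 36.8% passed. The knockout share was thus near that of all genes. The rises in both were Slc30a5, which loads zinc into the early secretory pathway (0.83 in knockouts, 0.88 in controls), and the Golgi importer Slc39a9 (0.41 and 0.64), and Slc39a6 rose in knockouts (0.56). Slc30a6 (0.72), Slc39a2 (0.82), Slc39a8 (0.49) and Slc39a3 (0.24) rose in controls. The falls in both were Slc30a9 (-1.02 in knockouts, -1.05 in controls), Slc39a7, which releases zinc from the endoplasmic reticulum (-0.95 and -0.84), Slc30a7 (-0.73 and -0.62) and Slc39a10 (-0.47 and -0.64). All these had limma adjusted p-values under 0.05, the highest being 0.0488 for Slc39a3. With fasted knockouts 2 and 3 left out, 2 rose and 3 fell in knockouts, where 21.4% of all genes passed. Slc30a5 was then at 0.56 and Slc39a6 at 0.57, while Slc39a9 at 0.36 (adjusted p = 0.131) and Slc39a10 at -0.53 (adjusted p = 0.0678) no longer passed.

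Glucocorticoids, the acute phase and oxidative stress each induce metallothioneins in rodent liver, so genes known to respond to them were read in the same arrays. Of 9 glucocorticoid-responsive genes 0 passed between fasted knockouts and controls. Their median difference was 0.36 and 8 of 9 lay above 0, beside a median of 0.01 and 51.3% above 0 over all genes. Their median level was 0.69, 1.08, 1.83 and 1.77 on fasted knockouts 1 to 4, against 0.30, 0.83, 1.54 and 1.52 on the fasted controls, and the groups overlapped. Sgk1, a glucocorticoid-induced kinase, came nearest at 0.58 ± 0.12 (adjusted p = 0.06), followed by the phosphatase gene Dusp1 at 1.04 ± 0.38 (adjusted p = 0.329) and Gadd45a at 0.98 ± 0.51 (adjusted p = 0.511). In the fit without fasted knockouts 2 and 3, 0 passed, the median was 0.35 and Sgk1 stood at 0.68 ± 0.15 (adjusted p = 0.168), Dusp1 at 0.75 ± 0.46 (adjusted p = 0.736) and Gadd45a at 0.92 ± 0.67 (adjusted p = 0.802). At an unadjusted p of 0.05 there were 1 in newborn, 2 in fasted and 1 in fed livers, beside 13.4, 11.1 and 7.15% of all genes. In fed livers 0 passed, with Sgk1 at 0.59 ± 0.14 (adjusted p = 0.188), and in newborns 0 passed, with Fkbp5 at 0.31 ± 0.11 (adjusted p = 0.236).

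Between fasted and fed livers the glucocorticoid-responsive genes split evenly, with 2 higher and 2 lower in each genotype, beside 35.7% of all genes passing in knockouts and 36.8% in controls. Fkbp5, a classical glucocorticoid target, rose by 1.93 ± 0.34 in knockouts (adjusted p = 0.00105) and by 1.23 ± 0.34 in controls (adjusted p = 0.0143). The tyrosine aminotransferase gene Tat changed by -0.97 ± 0.16 in knockouts (adjusted p = 0.000648) and by -0.72 ± 0.16 in controls (adjusted p = 0.00391). Sgk1 changed by -0.42 ± 0.13 in knockouts (adjusted p = 0.0251) and by -0.41 ± 0.13 in controls (adjusted p = 0.0262). The other riser, Tsc22d3, was named after its values were seen, at 1.00 ± 0.35 in knockouts (adjusted p = 0.0412) and 0.96 ± 0.35 in controls (adjusted p = 0.0483). With fasted knockouts 2 and 3 left out, Fkbp5 at 1.82 and Tat at -1.0 passed in knockouts, while Sgk1 at -0.32 (adjusted p = 0.18) and Tsc22d3 at 1.14 (adjusted p = 0.0935) did not.

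Of 17 acute phase genes 0 passed in fasted livers, where 11 lay above 0 and the median was 0.06, with Orm3, an orosomucoid, at 1.88 ± 0.48 (adjusted p = 0.13). In the fit without fasted knockouts 2 and 3, 0 passed, the median was 0.01 and Orm3 stood at 1.83 ± 0.61 (adjusted p = 0.375). In fed livers 0 passed while 17 of 17 lay above 0, against 55.7% of all genes, with a median of 0.39 and Orm2 at 0.81 ± 0.18 (adjusted p = 0.121). In the same fed comparison 10 of 10 hepatocyte and 10 of 10 Kupffer markers also lay above 0. In newborns 1 of 16 passed, Orm1, higher in knockouts at 1.61 ± 0.29 (adjusted p = 0.0353), where 1.48% of all genes passed. At an unadjusted p of 0.05 there were 7 of 16 in newborn, 1 of 17 in fasted and 8 of 17 in fed livers, beside 13.4, 11.1 and 7.15% of all genes.

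With fasting 12 of 17 acute phase genes fell and 1 rose in knockouts, and 9 fell and 1 rose in controls, beside 35.7 and 36.8% of all genes passing in either direction. Fgg, the fibrinogen gamma chain, stood at -2.69 in knockouts (adjusted p = 1.65e-06) and -2.45 in controls (adjusted p = 3.62e-06). The riser in both was Apcs, serum amyloid P, at 0.33 ± 0.12 in knockouts (adjusted p = 0.0412) and 0.80 ± 0.12 in controls (adjusted p = 0.000296), named after its values were seen. On the same arrays 9 of 10 hepatocyte markers also fell in each genotype, with median differences of -1.73 in knockouts and -1.29 in controls, beside -1.09 and -0.49 for the acute phase genes. With fasted knockouts 2 and 3 left out, 11 acute phase genes fell and 0 rose in knockouts, and 9 hepatocyte markers fell.

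Of 11 oxidative stress genes 0 passed between fasted knockouts and controls. Their median difference was 0.27 and 10 of 11 lay above 0, beside a median of 0.01 and 51.3% above 0 over all genes. The median level of the list was 0.45, 0.77, -0.11 and -0.25 on fasted knockouts 1 to 4, against 0.12, -0.05, -0.12 and -0.25 on the fasted controls, so knockouts 1 and 2 lay above the controls and knockouts 3 and 4 among them. Hmox1, heme oxygenase 1, stood at 1.07 ± 0.29 (adjusted p = 0.166) and the glutathione transferase Gsta1 at 1.06 ± 0.36 (adjusted p = 0.278). In the fit without fasted knockouts 2 and 3, 0 passed, the median was 0.38, Hmox1 stood at 0.81 ± 0.28 (adjusted p = 0.409) and Gsta1 at 1.41 ± 0.36 (adjusted p = 0.237). In fed livers 2 of 11 lay above 0 with a median of -0.15, against 55.7% of all genes, and in newborns 6 of 11 with a median of 0.02, against 47.4% of all genes, and 0 passed in either. At an unadjusted p of 0.05 there were 1 in newborn, 3 in fasted and 2 in fed livers, beside 13.4, 11.1 and 7.15% of all genes.

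Between fasted and fed knockouts 1 oxidative stress gene rose and 1 fell, where 35.7% of all genes passed. Srxn1, sulfiredoxin, rose by 2.21 ± 0.73 (adjusted p = 0.0318), and Gclm, a subunit of the glutathione-synthesizing enzyme glutamate-cysteine ligase, changed by -0.70 ± 0.23 (adjusted p = 0.0298). In controls 0 rose and 4 fell, where 36.8% of all genes passed. They were Gclc (-0.92, adjusted p = 0.00785), Gsta1 (-1.47, adjusted p = 0.0106), Gsta4 (-0.41, adjusted p = 0.0368) and, named after its values were seen, Gstm1 (-0.76, adjusted p = 0.0473). With fasted knockouts 2 and 3 left out, Srxn1 at 2.15 passed in knockouts (adjusted p = 0.0459) and Gclm at -0.80 did not (adjusted p = 0.0698).

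The genes most like the metallothioneins were ranked by the mean of their Pearson correlations with Mt1 and Mt2 over the 14 adult arrays, among 11978 named genes above background on all 8 fasted arrays. They were Ptp4a1, a phosphatase (mean r = 0.948), Pakap (0.938), Bach1, a repressor of heme oxygenase and other oxidative stress genes (0.935), the splicing factor Srrm4 (0.934), the p53 target Trp53inp1 (0.934) and S100a8, a calprotectin subunit of neutrophils (0.929). Over the 8 fasted arrays alone their mean r was 0.95, 0.906, 0.941, 0.939, 0.915 and 0.883 in that order. The arrays share fasting state, slide and reference, and the correlations are given without a test.

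Bach1 stood at 3.21, 3.48, 2.30 and 1.30 in fasted knockouts 1 to 4, against 0.60, 1.41, 1.42 and 2.01 in fasted controls. Trp53inp1 stood at 4.06, 3.38, 2.37 and 1.57 in fasted knockouts and at 0.05, 1.44, 0.49 and 1.28 in fasted controls. S100a8 stood at 1.17, 2.15, 0.11 and -1.02 in fasted knockouts and at -0.65, -0.79, -0.56 and -0.11 in fasted controls. In each of the 3 genes knockout 4 was the lowest knockout. For Bach1 and S100a8 it lay within or below the controls, and for Trp53inp1 just above them. Fasted control 4, the control with the most Mt1 and Mt2, was also the highest control for Bach1 and S100a8. The genes were ranked by likeness to Mt1 and Mt2 on these same arrays. Shared lows and highs of this kind therefore follow in part from the ranking.

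**Figure D5:**
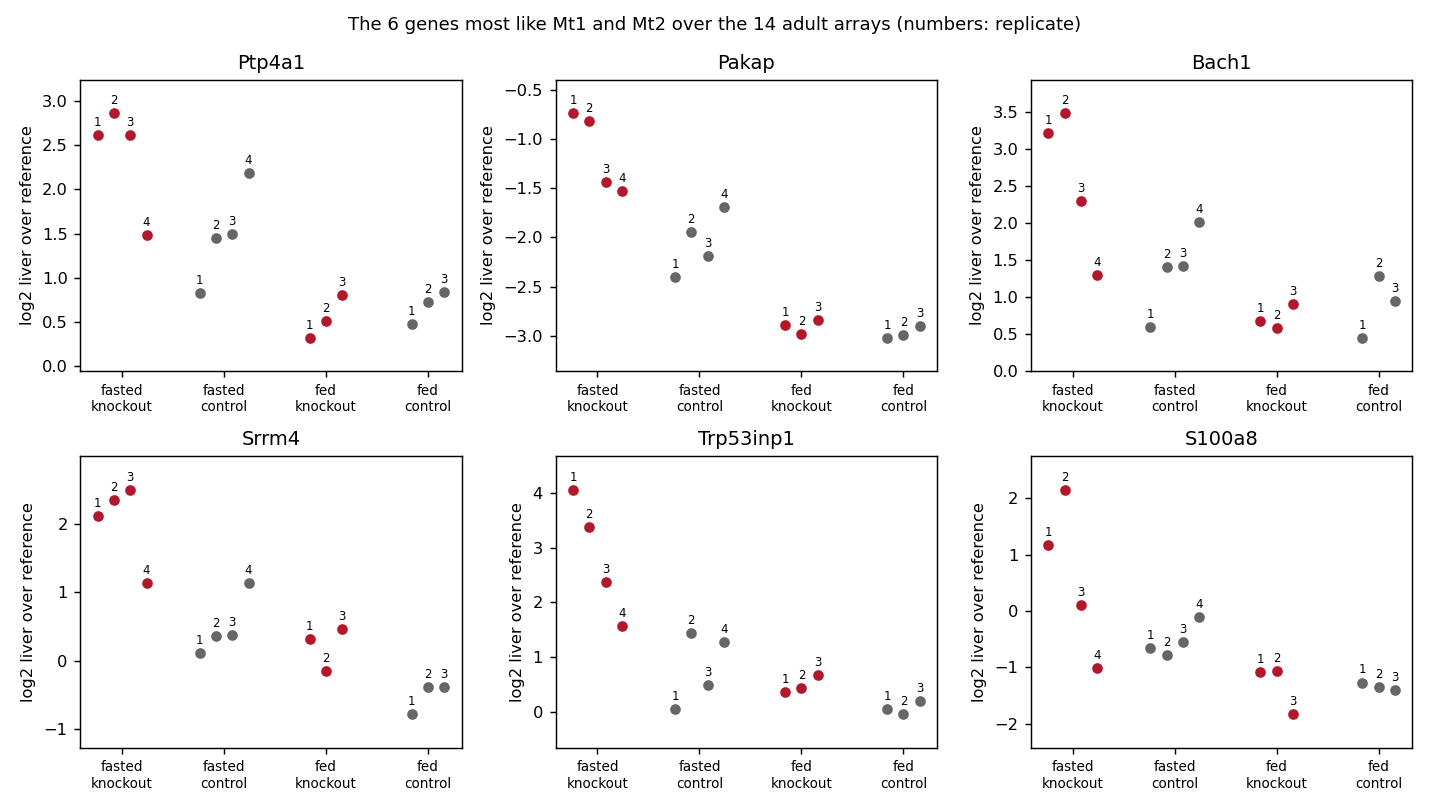
Log2 ratio of liver over reference signal on each of the 14 adult arrays for the 6 genes whose values were most like those of Mt1 and Mt2, knockouts in red and controls in grey, with replicate numbers. Mean correlations with Mt1 and Mt2 run from 0.929 to 0.948, and fasted knockout 4 is the lowest fasted knockout in each panel. The genes were ranked on these arrays, so this shared low follows in part from the ranking.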

How the data were processed

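The deposited files were Agilent Feature Extraction output for a whole mouse genome two-colour array, one per sample, with liver in the green (Cy3) and reference RNA in the red (Cy5) channel and no dye swap, per the labels. Feature Extraction was version 10.5.1.1 per the file headers and 8.5.1.1 per the submitters' processing notes. The median signals used are intensity values deposited by the authors, and the log10 ratios the authors deposited for the whole series equal those in the scanner files (largest difference 0). Signals were background-corrected by normexp with an offset of 50 after outlier local backgrounds were replaced by the array's median, and normalized by loess within arrays, and ratios were turned to liver over reference. Non-uniform and population outlier spots were left out and spots of a probe averaged. Adult files carry no gene names, so these came from the newborn files by probe.

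A probe entered the newborn fit if its liver signal passed Feature Extraction's test of being well above background on 4 or more arrays there, and the adult fit if it did so on 3 or more. The brightest probe stood for a gene. Differences were tested with limma 3.58.1 in R 4.3.3, one fit for newborns and one over the 4 adult groups, with Benjamini-Hochberg adjustment over all genes and a threshold of 0.05. The fits were tested on simulated data. The number of arrays limits the precision. The rule for named genes was all 8 members, Mt3 and Mt4, every further zinc gene that passed (or the 2 with the smallest adjusted p), up to 3 genes of each other list per comparison and the 6 most alike genes. The 8 genes, the lists and the tests were chosen with earlier results of these data known. Alternatives included other background corrections, scalings, filters, blocks by slide or replicate, and leaving out arrays.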

Additional observations from a re-analysis of the deposited data

Results flagged for a closer look

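Within groups of 4 arrays, 3 of 46 sets of values for the probes of these genes held one array far from the rest, by the gap to its nearest neighbour over the range. Chance alone would give about 1 in 20. For Mtf1 (the probe at chr4:124482221-124482280, mm9), newborn knockout 4 stood at 1.03 and the other newborn knockouts at 0.93 to 0.94. For Slc30a10 (the probe at chr1:187288652-187288711) fasted knockout 3 stood at 4.87 and the other fasted knockouts at 5.54 to 5.63. For the other Slc30a10 probe (chr1:187292107-187292166) fasted knockout 1 stood at 2.09 and the other fasted knockouts at 3.42 to 3.47. The 2 Slc30a10 probes thus single out different arrays. Fasted knockout 4, low for Mt1 and Mt2, did not meet this measure for either gene.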

How the results depend on the processing

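Over 42 alternatives, 1158 of 1245 recomputed values were classed as unchanged, and 42 turned their sign. Leaving out an adult array outside the 2 groups compared cannot change their difference. Such runs are among the 1245 values, so the count of unchanged values is in part set by the design. For tested differences, unchanged meant the same direction and the same side of the threshold. For Mt1 and Mt2 in comparisons that use fasted livers, it meant a shift smaller than the SD within groups. For counts of members it meant an equal or similar count, so that 3 falling to 2 was classed as unchanged. Mt1 and Mt2 stayed higher in fasted knockouts than in fasted controls under each alternative run, and leaving out one array at a time gave 1.63 to 2.82 for Mt1 and 2.76 to 4.34 for Mt2. The counts of members passing between genotypes stayed at 0 under each of these, with Mt1 and Mt2 not tested, and so not counted, in fasted livers. The counts passing with fasting did not hold: of 3 in controls, 0 passed with outlier backgrounds kept, 1 on the liver channel alone (Slc39a14) and 1 with the mean over probes (Mtf1), and leaving out one array gave 2 to 3. Of 3 in knockouts, 0, 1 and 1 passed under the same settings, 1 without fasted knockouts 1 and 2, 1 without fasted knockouts 2 and 3 (an alternative chosen after seeing the data), and leaving out one array gave 1 to 4, with 1 without fasted knockout 2 or without fed knockout 2 (Mtf1 each time). The cause was not tested.

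Signs turned as follows. With outlier backgrounds kept, Slc39a4 in newborns was 0, Slc30a1 was 0.73 between fasted knockouts and controls, and between fasted and fed controls Slc30a1 was -0.76, Slc39a14 -0.08 and Slc30a10 -1.17. With median centring in place of loess, Slc39a4 was 0.16 in newborns, -0.02 between fed knockouts and controls and 0.53 between fasted and fed controls, Mt2 was -0.01 between fed knockouts and controls, and Slc30a1 was 0.02 between fasted and fed knockouts. On the liver channel alone, Slc30a1 was 0.21 between fasted knockouts and controls and 0.07 between fasted and fed knockouts, and Slc30a10 was -0.06 between fasted and fed controls. With Feature Extraction's processed signals Slc30a10 was -0.31 between fasted and fed knockouts. Within slide 4 Slc30a1 was 0.06 between fasted knockouts and controls. Within slide 6 Mt1 was -0.07 and Mt2 -0.28 between fed knockouts and controls, and Mt2 was -0.04 there with slide as a fixed block. With median centring after loess Slc30a1 was -0.01 between fasted and fed controls. Slc39a4 between fasted and fed knockouts passed only with median centring in place of loess, at 0.82 (adjusted p = 0.00696), and was -0.01 with centring after loess, -0.04 with array weights, -0.02 with slide as a random block, -0.02 without fasted knockouts 1 and 2, and 0 with the replicate block.

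Leaving out one array at a time turned signs within these ranges: Mtf1 -0.26 to 0 and Slc39a4 -0.16 to 0.1 in newborns, Slc30a1 -0.12 to 0.06 between fasted knockouts and controls, Mt2 -0.16 to 0.33 and Slc39a4 -0.08 to 0.37 between fed knockouts and controls, Slc39a4 -0.35 to 0.06 and Slc30a1 -0.07 to 0.1 between fasted and fed controls, and Slc39a4 -0.27 to 0.18 between fasted and fed knockouts.

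Over all genes, calls ranged from 0 to 996 in newborns (255 as reported), 27 to 380 in fasted, 11 to 99 in fed, 3838 to 9527 and 3336 to 9127 in fasted against fed controls and knockouts, and 0 to 12 for the interaction. Of the fasted control calls 3465 were higher and 2861 lower, against 7383 and 1710 with processed signals, 6430 and 2639 with median centring and 1329 and 2509 with outlier backgrounds kept. Of the fasted knockout calls against fed knockouts 3211 were higher and 2924 lower, against 7205 and 1882, and 7056 and 2071, with processed signals and median centring. Between fasted knockouts and controls 19 were higher and 63 lower, against 120 and 29 with outlier backgrounds kept. Same-numbered arrays correlated at 0 to 0.1 in fasted and -0.11 to 0.16 in fed livers, so the replicate block has little basis in adults. It left Mt1 at 2.08 and Mt2 at 3.33 in fasted livers. That was fixed by the design, as each fasted replicate number holds both genotypes. Only the SEs could move, and they were 0.65 for Mt1 and 0.93 for Mt2. In newborns the correlations were 0.5, 0.35, 0.39 and -0.23 for replicates 1 to 4, and what the numbers stand for there was not tested. The fed arrays had fewer probes above background, which limits Mtf1 and Slc30a10 there.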
